A study of Mus musculus with 12 samples.

Results

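The 10 genes described here encode enzymes that build triglyceride from glycerol phosphate, and they were measured by RNA-Seq in the livers of 12 mice. They are the features of the deposited expression table whose gene name is *Gpam*, *Gpat4*, *Agpat2*, *Agpat3*, *Lpin1*, *Lpin2*, *Lpin3*, *Mogat1*, *Dgat1* or *Dgat2*, so that 10 of the 55385 features of the table are covered. All 10 had 1 feature each and a mean of at least 1 TPM (a transcript abundance corrected for gene length and scaled to the same total in every sample), and none was lost to the filter on low values. The study asked what a long noncoding RNA called GULL does in liver, by lowering the mouse RNA (mGULL) and adding back the human one (hGULL). The 4 mice of the GULL_control group received the 2 control adenoviruses, Lac and pAdV5. The 4 mice of the mGULL_knockdown group received an adenovirus with a short hairpin RNA against mGULL together with pAdV5. The 4 mice of the hGULL_rescue group received the same knockdown virus together with one that expresses hGULL. All were male C57BL6 mice aged 7 weeks, each group was given 500000000 viral particles in total, and livers were taken after 7 days, so that adenovirus infection is common to all 3 groups. The deposited design gives the route as intravitreal and the virus methods of the study give it as retro-orbital. The levels of mGULL and hGULL were not analysed here.

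Triglyceride is assembled in steps at the endoplasmic reticulum and the outer mitochondrial membrane. Glycerol phosphate acyltransferases (*Gpam* in mitochondria, *Gpat4* in the endoplasmic reticulum) attach a fatty acid to glycerol phosphate, and acylglycerol phosphate acyltransferases (*Agpat2*, *Agpat3*) attach another to give phosphatidic acid. Lipins (*Lpin1*, *Lpin2*, *Lpin3*) then remove the phosphate to give diacylglycerol, which *Mogat1* can also make from monoacylglycerol, and diacylglycerol acyltransferases (*Dgat1*, *Dgat2*) add the last fatty acid. In liver the product is stored in lipid droplets or secreted in very low density lipoprotein, and *Gpam* is known as a target of SREBP1, the transcription factor that drives fatty acid synthesis.

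The study examines GULL together with CRTC2, a coactivator of the transcription factor CREB, and with SREBP1. The sequences before the transcription starts are therefore shown for the members with the highest (*Gpam*, *Agpat2*) and the lowest (*Lpin2*) log2 fold change after knockdown. RefSeq starts gave 11 windows of 250 bases upstream for 7 of the members. None was listed for *Gpat4*, *Dgat1* and *Dgat2*. Sequences are from RefSeq on GRCm38.p6, written 5′ to 3′ along the gene, and capitals mark the CREB core motif TGACG or the E-box CACGTG, on either strand. *Gpam* (chromosome 19, 55067635 to 55127319, minus strand) has 2 listed starts, and the window of the one farther from the edge of the gene span is chr19:55099478-55099727. *Agpat2* (chromosome 2, 26593057 to 26604417, minus strand) has the window chr2:26604418-26604667. *Lpin2* (chromosome 17, 71183532 to 71249818, plus strand) has 3 listed starts, and the window of the most upstream one is chr17:71183282-71183531.
Gpam, inner start: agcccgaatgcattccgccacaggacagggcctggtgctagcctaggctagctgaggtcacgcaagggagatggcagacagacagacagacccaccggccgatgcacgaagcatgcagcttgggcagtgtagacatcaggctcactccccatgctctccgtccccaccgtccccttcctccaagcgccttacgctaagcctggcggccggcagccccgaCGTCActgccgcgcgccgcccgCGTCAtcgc
Agpat2: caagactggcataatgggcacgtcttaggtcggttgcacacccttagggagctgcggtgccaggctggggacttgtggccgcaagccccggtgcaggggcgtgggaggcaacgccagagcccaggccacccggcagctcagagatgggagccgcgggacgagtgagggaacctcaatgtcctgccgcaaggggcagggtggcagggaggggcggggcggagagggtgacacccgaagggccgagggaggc
Lpin2, most upstream start: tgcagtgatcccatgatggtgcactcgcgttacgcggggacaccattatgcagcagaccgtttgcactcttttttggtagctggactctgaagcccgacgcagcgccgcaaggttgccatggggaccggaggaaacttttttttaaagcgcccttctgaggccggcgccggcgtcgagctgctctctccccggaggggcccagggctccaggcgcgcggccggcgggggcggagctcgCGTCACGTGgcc
The inner *Gpam* window, which lies within the gene span, held 2 CREB core motifs, beginning at -31 and -9 from the start. The *Lpin2* window held an E-box at -9 and a core motif at -12, which overlap. The *Agpat2* window held none of the motifs searched. Among all 11 windows of the members, TGACG was found only in the printed *Gpam* and *Lpin2* windows. CACGTG was found only in the printed *Lpin2* window. The other *Gpam* window, beside the start nearer to the end of the gene's span, is not printed. It held a CCAAT box at -74 and neither a CREB core motif nor an E-box. It overlaps the gene span in part, whereas the printed *Gpam* window lies wholly within that span. The overlap is therefore no reason to prefer the printed window, and which start is used in liver was not tested. Of all 32851 upstream windows, 17.8% held TGACG, 6.02% held CACGTG, 33.8% held CCAAT, 1.55% held the full CREB site TGACGTCA and 1.05% held TCACNCCAC, a form of the sterol response element. The last 2 were found in no window of a member. These matches describe the letters of the windows, and no binding was measured in these files. The members lie on 9 chromosomes, with *Agpat2* and *Lpin3* (160880670 to 160906000) both on chromosome 2. In the same build *Dgat2* is on chromosome 7 (99153663 to 99182713), *Dgat1* on chromosome 15 (76502012 to 76512021), *Gpat4* on chromosome 8 (23171265 to 23208453), *Agpat3* on chromosome 10 (78269174 to 78352497), *Lpin1* on chromosome 12 (16535669 to 16653903) and *Mogat1* on chromosome 1 (78511060 to 78606964). Reads were counted over whole genes, so that their transcripts are not told apart.

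In livers of control mice the 10 enzymes spanned a wide range of level, from *Dgat2* at 428 ± 40.3 TPM (SD, n = 4) to *Mogat1* at 1.5 ± 0.69 TPM (SD, n = 4). *Lpin1* was the next highest at 264 ± 29.9 TPM, below *Dgat2* and above *Lpin2* in every control mouse. *Lpin2* (193 ± 24.4 TPM), *Agpat2* (161 ± 29.0 TPM), *Gpam* (151 ± 33.3 TPM) and *Gpat4* (116 ± 13.1 TPM) followed, each overlapping its neighbours in this order. *Agpat3* (89.9 ± 3.70 TPM), *Dgat1* (22.4 ± 4.58 TPM) and *Lpin3* (8.74 ± 1.29 TPM) lay below, each apart from the next. Enzymes of one step could be close in level, as *Gpam* and *Gpat4* were, or far apart, and *Dgat2* stood 20.03-fold (± 6.54, SD, n = 4) above *Dgat1* within a mouse. After knockdown the order changed in its upper part, where *Gpam* took the second place at 325 ± 106 TPM and *Lpin2* stood below *Agpat2*, with *Gpam*, *Lpin1* and *Agpat2* overlapping. The summed level of the 10 genes was 1435 ± 63.2 TPM in control, 1869 ± 123 TPM in knockdown and 1680 ± 85.5 TPM in rescue mice (SD, n = 4 each). The control range (1354 to 1507) lay below the other 2. Single genes also lay apart upward from control, 6.93% of the 16378 tested in knockdown and 21.4% in rescue mice. The median gene was 0.087 above control on the log2 scale in knockdown and 0.17 in rescue mice. The sum follows the most abundant genes and is given in the deposited TPM only. In knockdown mice *Dgat2* averaged 610 TPM and *Agpat2* 246 TPM, above control like *Gpam*, whereas *Lpin2* and *Lpin3* averaged below control.

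**Figure D1:**
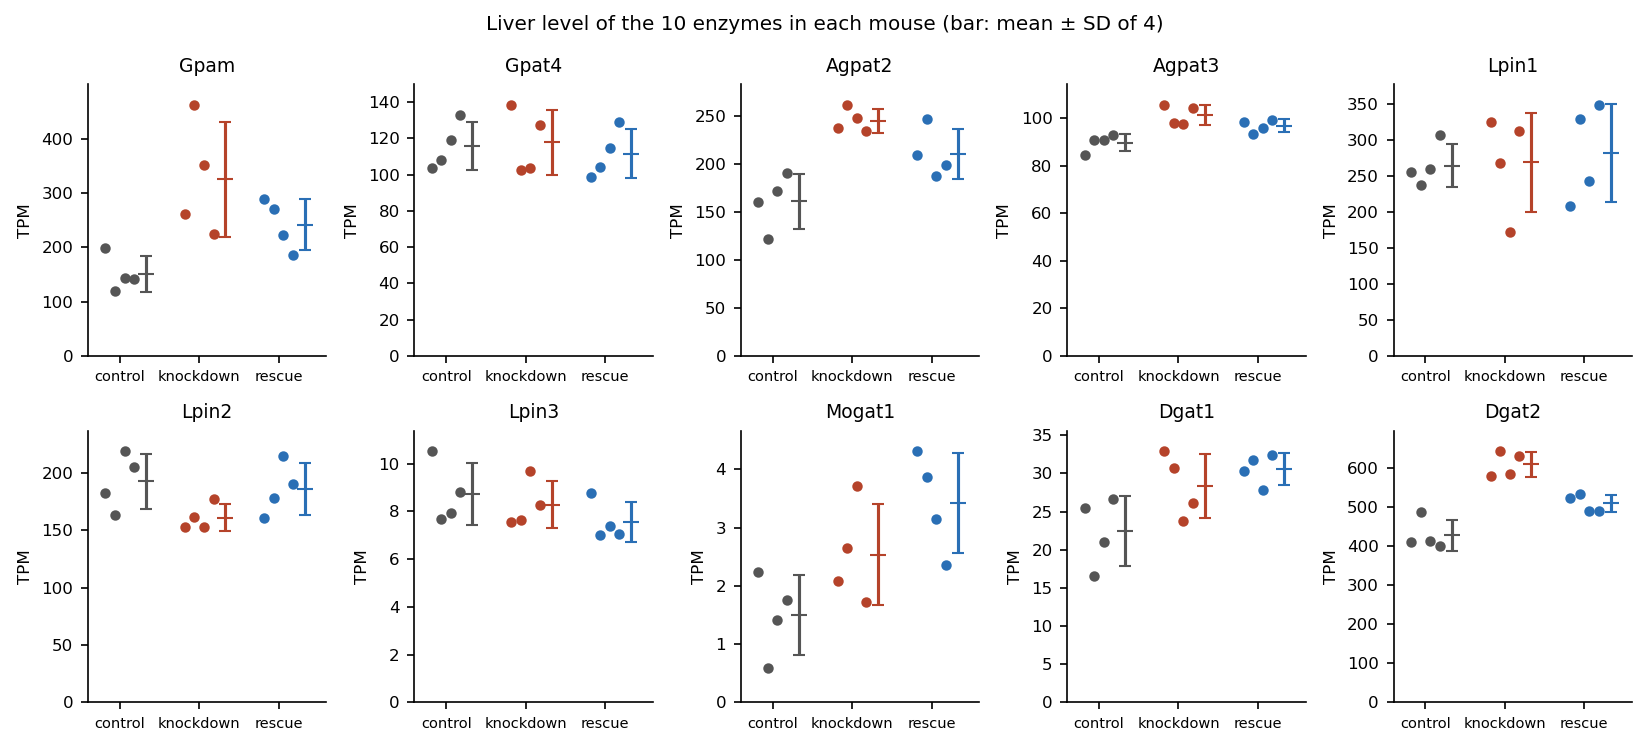
TPM (vertical axis, linear and starting at 0) of each of the 10 enzymes in the 4 control, 4 knockdown and 4 rescue mice. Points are mice in the order of their replicate numbers and bars are the mean ± SD; the knockdown and control points lie apart for Gpam, Agpat2, Agpat3 and Dgat2, and overlap for the other 6.

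Knockdown of mGULL was compared with control to ask which steps of the pathway responded. Of the 10 enzymes, 3 rose: *Gpam*, *Agpat2* and *Dgat2*, which are one enzyme each of the first acylation, the second acylation and the last acylation. Their log2 fold changes were between 0.51 and 1.07 with limma adjusted p values between 0.00995 and 0.0256. These calls depend on the fit: with only the 2 groups compared all 3 were lost (adjusted p = 0.0780, 0.0790 and 0.0621), with no filter *Gpam* (0.0609) and *Agpat2* (0.0532) were lost, and *Agpat2* was also lost with array weights (0.0742). None of the 3 lipins, which take the phosphatase step between these acylations, passed the adjusted test in either direction. A gene counted as past the study's threshold when its absolute log2 fold change exceeded 0.5 with an unadjusted P under 0.05. The same 3 members passed it upward and 0 downward, where 5.35% of the 16378 genes tested passed upward and 2.30% downward. That count is fragile: *Dgat2* fell under 0.5 when any of several single mice was left out (lowest 0.483) and after median-of-ratios scaling (0.40). *Agpat2* fell under 0.5 without control replicate 2 (0.494). An adjusted p under 0.05 with a higher level was met by 3 members and by 2.44% of all genes. The groups did not overlap, with knockdown higher, for 4 members and for 6.93% of all genes, and an unadjusted P under 0.05 in either direction was met by 6 members and by 20.2% of all genes. Of these 6, *Lpin2* was lower, and *Gpam*, *Agpat2*, *Agpat3*, *Dgat1* and *Dgat2* were higher. The median log2 fold change of the members was 0.25, and that of all genes tested was 0.087.

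*Gpam*, whose product begins the pathway, was at 198, 120, 143 and 142 TPM in control mice and at 262, 462, 351 and 225 TPM in knockdown mice. Every knockdown mouse lay above every control mouse, and the knockdown mice were widely spread, with replicate 2 highest and replicates 1 and 4 lowest. The log2 fold change was 1.07 (SE 0.22, 2.10-fold, adjusted p = 0.0256), the largest of the 10. In bulk liver, a different number of cells of a type and a different amount of RNA per cell cannot be told apart. The adjusted p rose to 0.0649 without knockdown replicate 2 and to 0.0792, 0.0742 and 0.0614 without control replicate 2, 3 or 4, while the log2 fold change stayed between 0.88 and 1.23 whichever mouse was left out. *Gpat4*, which performs the same reaction in the endoplasmic reticulum, was at 103, 108, 119 and 133 TPM in control and 139, 103, 103 and 127 TPM in knockdown mice. These values overlapped over most of their range, and the log2 fold change was 0.02 (SE 0.12, adjusted p = 0.950). The 2 knockdown mice with the highest *Gpat4*, replicates 1 and 4, were the 2 with the lowest *Gpam*.

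*Agpat2*, the acyltransferase that is mutated in a form of congenital lipodystrophy, was at 161, 122, 172 and 190.3 TPM in control mice and at 237, 262, 248 and 234 TPM in knockdown mice. The groups lay apart, and the knockdown mice were close together, with a coefficient of variation of 5.10% against 18.02% in control. The log2 fold change was 0.62 (SE 0.13, 1.54-fold, adjusted p = 0.0242). The adjusted p was 0.0711 without knockdown replicate 2 and 0.0523 without control replicate 3. *Agpat3* was among the most even of the 10, at 84.5, 91.1, 91.0 and 92.9 TPM in control and 106, 97.9, 97.7 and 105 TPM in knockdown mice. The groups did not overlap, but the difference was small, with a log2 fold change of 0.17 (SE 0.062, adjusted p = 0.134), which is 0.087 above the median of all genes.

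The lipins, phosphatidate phosphatases that can also act in the nucleus, did not pass the adjusted test. *Lpin1* was at 255, 237, 259 and 307 TPM in control mice and at 324, 267, 172 and 311 TPM in knockdown mice. The knockdown mice reached both below and above the control mice, and the log2 fold change was -0.01 (SE 0.20, adjusted p = 0.987). *Lpin2* was at 183, 164, 219 and 205 TPM in control and 152, 161, 152 and 177 TPM in knockdown mice. It had the lowest log2 fold change of the 10, -0.25 (SE 0.11, unadjusted P = 0.0391, adjusted p = 0.217 by limma), with 3 of the 4 knockdown mice below every control mouse. After median-of-ratios scaling *Lpin2* was at -0.36 (adjusted p = 0.112 by limma). *Lpin3*, the least abundant lipin, was between 7.67 and 10.5 TPM in control and between 7.55 and 9.70 TPM in knockdown mice (log2 fold change -0.07, SE 0.12, adjusted p = 0.809).

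*Dgat2*, a diacylglycerol acyltransferase of the endoplasmic reticulum and lipid droplet surface, was at 410, 488, 414 and 400 TPM in control mice and at 581, 644, 584 and 630 TPM in knockdown mice. The groups lay far apart for their spread, although control replicate 2 stood away from the other 3 control mice. The log2 fold change was 0.51 (SE 0.082, 1.43-fold) and its adjusted p of 0.00995 was the lowest of the 10. The value lay close to the study's threshold of 0.5: it was 0.40 (adjusted p = 0.0461) after median-of-ratios scaling and 0.49 after rescaling without the 20 highest genes. *Dgat1*, the other enzyme of this step, was at 25.5, 16.6, 21.1 and 26.7 TPM in control and 32.9, 30.6, 23.7 and 26.1 TPM in knockdown mice. The ranges overlapped, and the log2 fold change was 0.33 (SE 0.14, adjusted p = 0.207). *Mogat1*, which enters the pathway at monoacylglycerol, was between 0.599 and 2.24 TPM in control and between 1.72 and 3.70 TPM in knockdown mice. Its log2 fold change of 0.51 (SE 0.24) came with an unadjusted P of 0.0523 and an adjusted p of 0.252 by limma.

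Expression of hGULL together with the knockdown virus was compared with knockdown alone to ask whether the human RNA moved these enzymes back. No member passed the study's threshold, where 2.33% of all genes passed upward and 0.672% downward. No member had an adjusted p under 0.05 by limma, and 0% of all genes did in either direction. At an unadjusted P under 0.05, 1 member (*Dgat2*) and 10.7% of all genes passed. *Dgat2* was at 524, 534, 490.3 and 491 TPM in rescue mice. All 4 were below all 4 knockdown mice, and it was the only member for which these groups lay apart, as they did in that direction for 0.983% of all genes. Its log2 fold change was -0.26 (SE 0.082, unadjusted P = 0.0081, adjusted p = 0.374 by limma). *Gpam* was at 288, 270.3, 222 and 186 TPM in rescue mice. These overlapped the lower part of the knockdown range, and the log2 fold change was -0.39 (SE 0.22, adjusted p = 0.536). *Agpat2* was at 209, 247, 188 and 199 TPM in rescue mice. Only replicate 2 reached the knockdown range, and the log2 fold change was -0.23 (SE 0.13, adjusted p = 0.532). For the 3 enzymes that rose after knockdown, the rescue mean lay between the other 2 means, with differences from knockdown that did not pass the adjusted test. These 3 are singled out by their high values in the same knockdown mice that this comparison uses, so a lower mean in rescue mice is no separate evidence of a return.

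The other 7 members showed no common direction between rescue and knockdown. *Lpin2* was at 160.4, 178, 215 and 190.4 TPM in rescue mice, with a log2 fold change of 0.20 (SE 0.11, adjusted p = 0.523), and *Lpin1* was at 208, 329, 242 and 349 TPM, with a log2 fold change of 0.08 (SE 0.20). *Lpin1* thus kept a wide spread in both groups that received the knockdown virus, with a coefficient of variation of 25.6% in knockdown and 24.0% in rescue mice against 11.3% in control. *Mogat1* was at 4.31, 3.87, 3.14 and 2.35 TPM in rescue mice, with a log2 fold change of 0.33 (SE 0.24) from knockdown. *Dgat1* was at 30.3, 31.8, 27.8 and 32.4 TPM. Both genes were thus highest on average in rescue mice, although the differences from knockdown did not pass the test (adjusted p = 0.618 and 0.769 by limma). *Gpat4* (98.5 to 129 TPM), *Agpat3* (93.3 to 99.5 TPM) and *Lpin3* (7.02 to 8.78 TPM) had log2 fold changes between -0.12 and -0.07. The median over the members was -0.07, and over all genes tested 0.093.

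Rescue mice were also set against control mice, to ask how far the enzymes remained from the control level. This comparison shares its samples with both of the others and does not stand as separate evidence. At the study's threshold 2 members passed upward, *Gpam* with a log2 fold change of 0.68 (SE 0.22, adjusted p = 0.0983) and *Mogat1* with 0.84 (SE 0.24, adjusted p = 0.0738), where 6.84% of all genes passed. No member had an adjusted p under 0.05 by limma, whereas 2.12% of all genes did with a higher level. At an unadjusted P under 0.05, 5 members passed (*Gpam*, *Agpat2*, *Mogat1*, *Dgat1* and *Dgat2*), and 25.3% of all genes did. The groups lay apart with rescue higher for 4 members, *Agpat3*, *Mogat1*, *Dgat1* and *Dgat2*, and for 21.4% of all genes. *Mogat1* was the member farthest from control, with every rescue mouse at or above 2.35 TPM and no control mouse above 2.24 TPM. It is also the least abundant member, and with a mean TPM of at least 5 as the filter it is not tested. *Dgat2* was 0.26 above control on the log2 scale (SE 0.082, adjusted p = 0.0939), *Dgat1* 0.45 (SE 0.14, adjusted p = 0.0928) and *Agpat2* 0.40 (SE 0.13, adjusted p = 0.0947). The lipins and *Gpat4* lay between -0.18 and 0.07, and *Agpat3* at 0.11 (SE 0.062). The median of the members, 0.18, was close to that of all genes, 0.17.

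**Figure D2:**
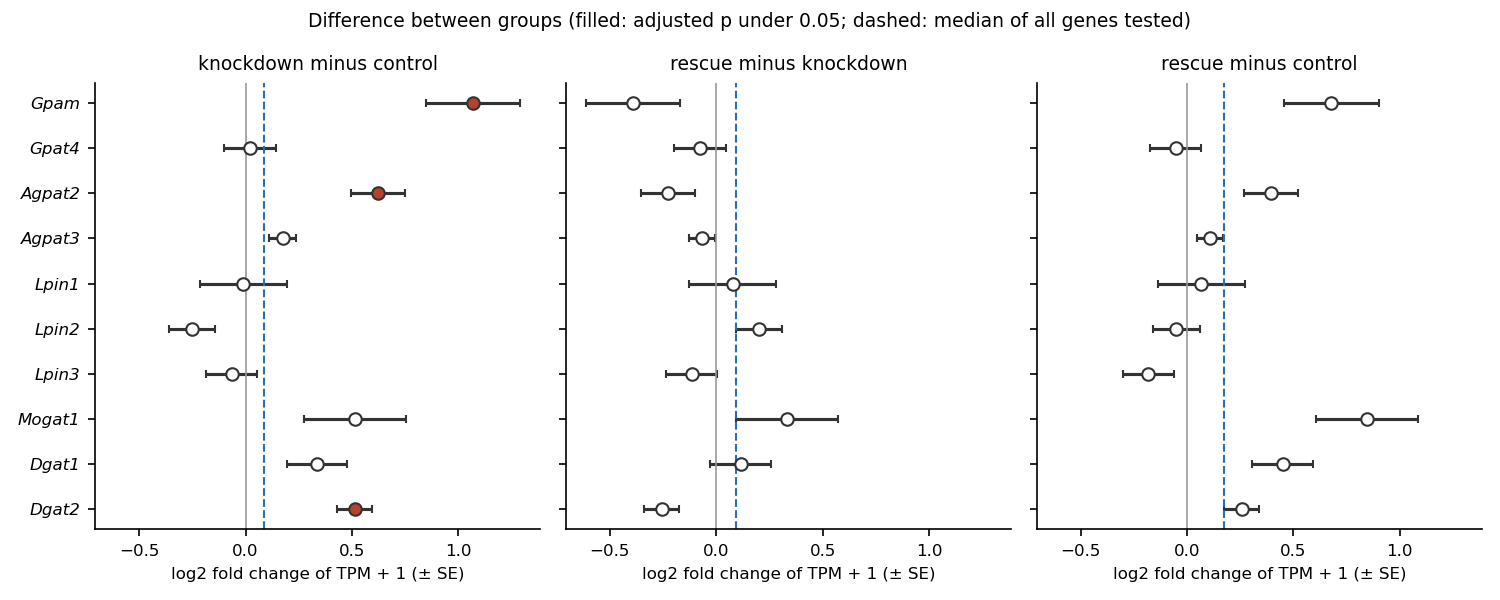
Log2 fold change of TPM + 1 (horizontal axis, ± SE from limma) of each enzyme in the 3 comparisons. Filled points, Gpam, Agpat2 and Dgat2 in knockdown minus control, have an adjusted p under 0.05, and the dashed line is the median of all 16378 genes tested, at 0.087, 0.093 and 0.17 from left to right.

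The median of all genes was not at 0 in the deposited TPM, and this touches the small differences above. After median-of-ratios scaling the median was within 0.011 of 0 in each comparison, and the share of threshold calls over all genes that were upward was 51.6%, 60.5% and 66.8% in place of 69.9%, 77.6% and 91.4%. *Gpam* and *Agpat2* then differed between knockdown and control by 0.96 (adjusted p = 0.0195) and 0.51 (adjusted p = 0.0309), whereas *Agpat3* differed by 0.064. Between rescue and control, *Gpam* went to 0.48, *Agpat2* to 0.19, *Dgat1* to 0.25, *Dgat2* to 0.052, *Agpat3* to -0.095, *Lpin1* to -0.14, and *Lpin2*, *Gpat4* and *Lpin3* to between -0.36 and -0.25. The differences between rescue and control thus depended on the scaling for these members. *Mogat1* went from 0.84 (adjusted p = 0.0738 by limma) to 0.72 (adjusted p = 0.203).

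Enzymes of the same step were also compared within each mouse, where scaling cancels. The ratios were chosen after the values had been seen, and 12 comparisons were made over 4 ratios. The ratio of *Agpat2* to *Agpat3* was 1.79 ± 0.314 in control, 2.43 ± 0.219 in knockdown and 2.18 ± 0.321 in rescue mice (SD, n = 4 each). Every knockdown mouse was above every control mouse (exact two-sided permutation p = 0.0286, the smallest that 4 against 4 allow, and 0.206 after Benjamini-Hochberg adjustment over the 12). The ratio of *Gpam* to *Gpat4* was 1.33 ± 0.398 in control, 2.89 ± 1.31 in knockdown and 2.22 ± 0.668 in rescue mice. Control replicate 1, at 1.92, lay above knockdown replicates 1 and 4, at 1.89 and 1.76 (exact permutation p = 0.0857, adjusted 0.206). The ratio of *Dgat2* to *Dgat1* was 21.9 ± 3.22 in knockdown and 16.7 ± 1.11 in rescue mice (exact permutation p = 0.0571, adjusted 0.206), and 1 knockdown mouse, at 17.7, was within the reach of the rescue mice. The ratio of *Lpin1* to *Lpin2* was 1.38 ± 0.138, 1.67 ± 0.412 and 1.53 ± 0.370 in the 3 groups. No ratio passed after adjustment.

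**Figure D3:**
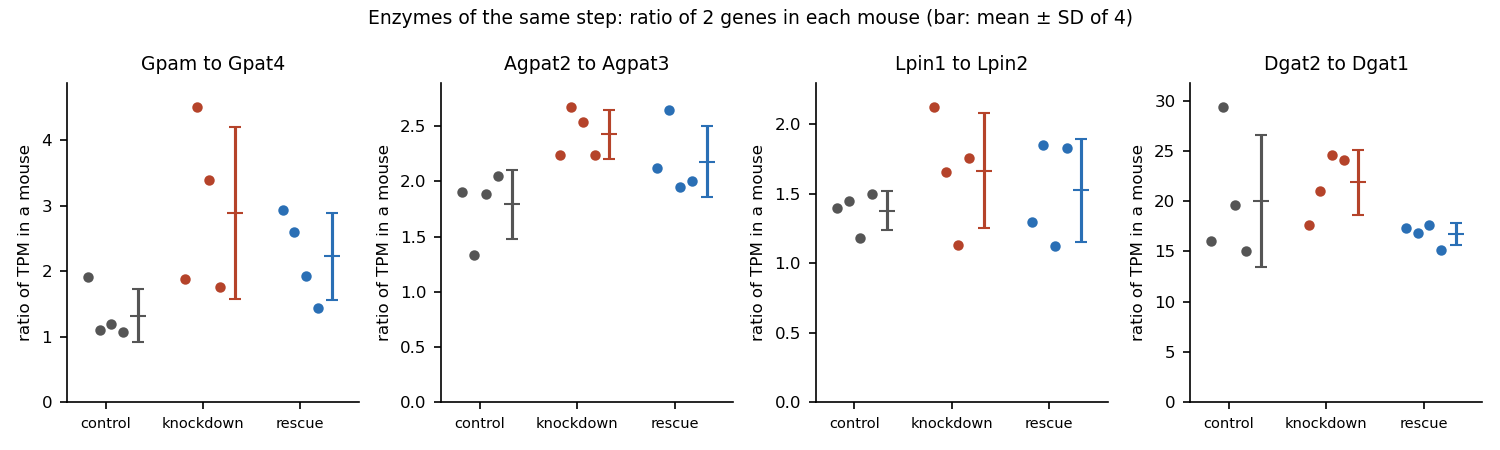
Ratio of the TPM of 2 enzymes of the same step in each mouse (vertical axis, linear and starting at 0), by group, with the mean ± SD of 4. Agpat2 to Agpat3 is higher in all 4 knockdown than in all 4 control mice, and the Gpam to Gpat4 ratio is widely spread after knockdown, from 1.76 to 4.51.

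The genes that feed the pathway and compete with it were taken from 5 lists of 55 genes, of which 52 were tested. In the supply of glycerol phosphate and activated fatty acid, 3 of 12 tested genes rose after knockdown and 0 fell at the study's threshold, which 5.35% of all genes passed upward. *Gpd1*, the cytosolic dehydrogenase that makes glycerol phosphate, went from 326 ± 19.95 to 601 ± 97.5 TPM (log2 fold change 0.87, SE 0.12, adjusted p = 0.00747). *Acsl3*, an acyl-CoA synthetase, went from 13.2 ± 0.872 to 20.2 ± 2.53 TPM (0.57, SE 0.10, adjusted p = 0.0139), and *Slc27a4*, a fatty acid transport protein, from 28.0 ± 3.36 to 41.4 ± 4.76 TPM (0.55, SE 0.12, adjusted p = 0.0270). *Gpd2*, the mitochondrial enzyme that oxidizes glycerol phosphate, was below that fold but lower in all 4 knockdown than in all 4 control mice, at 26.0 ± 2.65 against 33.8 ± 2.86 TPM (-0.37, SE 0.10, adjusted p = 0.0662). Of the 12, *Gpd1* was the one past the study's threshold between rescue and control, at 0.56 (SE 0.12, adjusted p = 0.0432). *Aqp3*, *Aqp7* and *Acsl6* were below the filter.

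Among the 12 other acyltransferases and phosphatases of glycerolipids, 0 passed upward and 1 downward at the study's threshold, *Lclat1*, an acyltransferase active on lysocardiolipin, at -0.60 (SE 0.16, adjusted p = 0.0591). None of the 5 lipin and acyltransferase partners passed. In the competing phospholipid and diacylglycerol branches, all 15 genes had a log2 fold change above 0, as did 10731 of the 16378 genes tested, and 13 were above the median of all genes. Their median was 0.21, and 1 passed the threshold, *Chpt1*, the cholinephosphotransferase that turns diacylglycerol into phosphatidylcholine, at 0.69 (SE 0.22, adjusted p = 0.101). *Pcyt2*, which makes the activated ethanolamine for phosphatidylethanolamine, was below that fold but had an adjusted p of 0.0260 (0.28, SE 0.058). *Chpt1* was also past the threshold between rescue and control, at 0.84 (SE 0.22, adjusted p = 0.0620).

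The 8 enzymes of de novo fatty acid synthesis had the largest median difference of the 6 groups of genes. All 8 tested passed the study's threshold upward after knockdown, 6 of them with an adjusted p under 0.05, and their median log2 fold change was 1.53, against 0.25 for the 10 triglyceride enzymes. The largest were *Elovl6* (1.99, SE 0.27, adjusted p = 0.00677), *Fasn* (1.87, SE 0.30, adjusted p = 0.00995), *Acly* (1.81, SE 0.26, adjusted p = 0.00807) and *Me1* (1.76, SE 0.26, adjusted p = 0.00822), and *Gpam*, at 1.07, was below 6 of the 8. The same 4 genes passed the threshold downward between rescue and knockdown, as 0.672% of all genes did, with log2 fold changes from -0.89 to -0.58 and adjusted p values from 0.389 to 0.463. These 4 have the largest rise in the same knockdown mice that this comparison uses, so their lower level in rescue mice is no separate evidence of a return. Without knockdown replicate 2, the mouse with the highest *Gpam*, *Agpat2* and *Dgat2*, 1 gene of the 5 lists passed between rescue and knockdown, and without rescue replicate 4, 2 did. Between rescue and control 5 of the 8 were past the threshold upward and 3 had an adjusted p under 0.05.

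**Figure D4:**
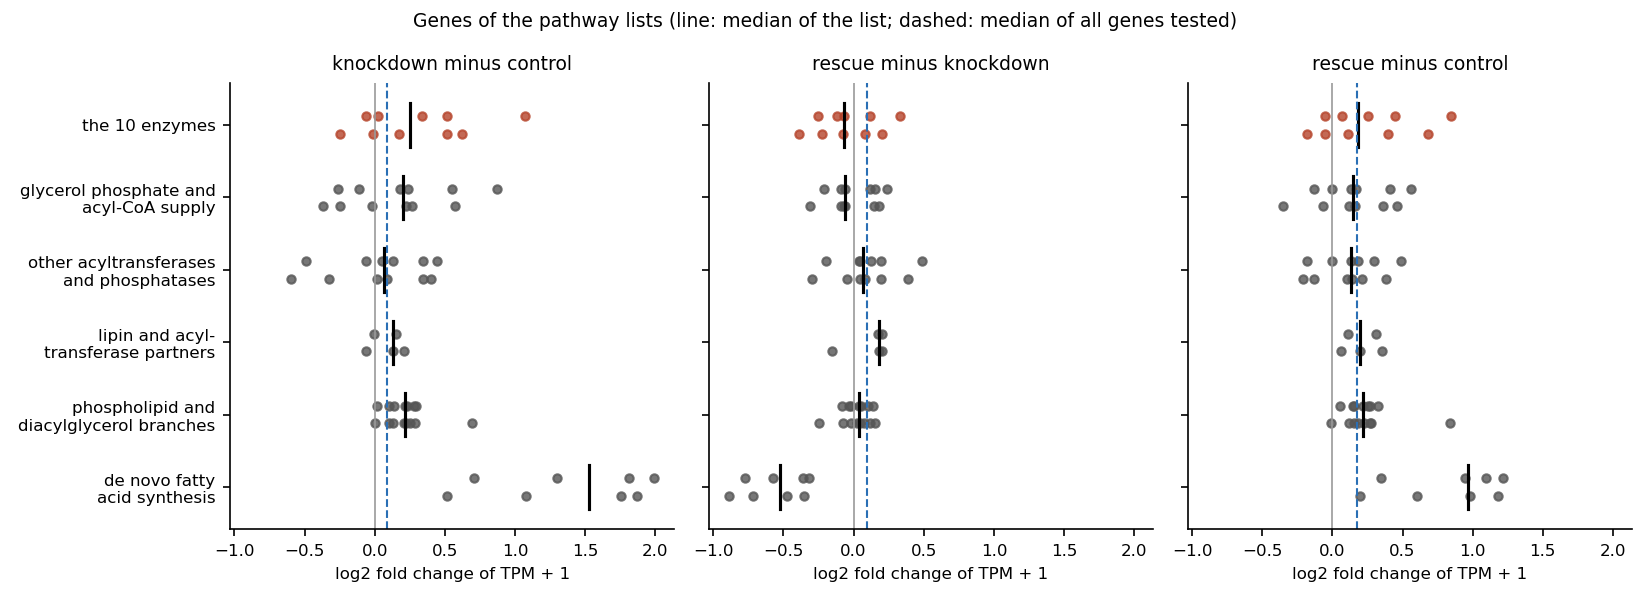
Log2 fold change of TPM + 1 (horizontal axis) of each tested gene of the 10 triglyceride enzymes and of 5 lists around them, in the 3 comparisons. Short lines are medians of the lists and the dashed line is the median of all genes tested; de novo fatty acid synthesis has a median of 1.53 after knockdown, against 0.25 for the 10 enzymes.

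The tissue matched its label, with 6 of 6 hepatocyte markers detected. Their sum was 74402 to 110098 TPM in control, 78262 to 92993 in knockdown and 65910 to 80181 in rescue mice. Of these 6 markers, *Apoa1* and *Tat* were lower at the study's threshold both in knockdown and in rescue against control. *Alb* and *Ttr* were lower in all 4 rescue than in all 4 knockdown mice, as 0.983% of all genes were. *Cps1* was lower in all 4 knockdown than in all 4 control mice, as 337 of the 16378 genes tested were. Adipocytes also express these enzymes, and of 7 adipocyte markers *Adipoq*, *Plin1*, *Lep* and *Retn* had a mean under 1 TPM, *Lep* being listed at 0 in every mouse. The other 3 were detected and had log2 fold changes above 0 after knockdown. *Fabp4* passed the study's threshold in knockdown (0.75, SE 0.26, adjusted p = 0.124) and in rescue (0.60, adjusted p = 0.172) against control, and *Cidec*, which hepatocytes with fat droplets also express, was at 0.78 (adjusted p = 0.379) and 0.98 (adjusted p = 0.209). The summed adipocyte markers were 10.8 to 53.6 TPM in control, 26.8 to 87.4 in knockdown and 34.7 to 59.2 in rescue mice. The 5 sinusoidal endothelial markers summed to 85.0 to 149 TPM in control, 141 to 185 in knockdown and 136 to 166 in rescue mice, and *Stab2* passed the adjusted test after knockdown (log2 fold change 0.54, adjusted p = 0.0476). Of 11 clock genes, which follow the hour of killing, *Cry1* was higher after knockdown, from 7.07 ± 0.434 to 14.5 ± 2.65 TPM (adjusted p = 0.00677), the one of 10 tested that passed, and it passed between rescue and control too (adjusted p = 0.0345). Markers of Kupffer cells, T and NK cells, stellate cells, cholangiocytes, exocrine pancreas and small intestine had no adjusted p under 0.05 in any comparison. At the study's threshold *Marco*, of the macrophage list, was lower in knockdown (-1.04) and in rescue (-0.93) against control, and *Sox9*, of the cholangiocyte list, was higher after knockdown (0.64). The 5 intestinal markers, which include *Apoa4*, a gene liver also expresses (0.82 after knockdown, adjusted p = 0.0873), summed to 209 to 406 TPM in control and 387 to 541 TPM in knockdown mice. The part of these differences in the enzyme levels was not tested.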

How the data were processed

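Liver RNA from 12 mice, 4 per group, was sequenced as strand-specific libraries. Per the labels and the study's methods, the authors trimmed reads with fastp 0.23.2, checked them with FastQC 0.11.8, mapped them to GRCm38.p6 (HISAT2 2.2.1.0), assigned them to GENCODE VM24 genes with featureCounts (Subread 2.0) and deposited TPM. The deposited TPM sum to 1000000 in every sample, so the depth and the counting error behind a value are unknown, and precision is given by the spread between mice. Reads shared by related genes could have been split or dropped by the counting, which was not tested. Groups came from the sample titles, which number the samples 1 to 4. The p-values measure the spread between these samples.

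Values were fitted as log2(TPM + 1) with limma 3.58.1 in R 4.3.3, for the 16378 features with a mean TPM of at least 1, in one model of the 3 groups with a mean-variance trend and Benjamini-Hochberg adjustment over all features. Fold changes are on this scale, which understates those of low genes. Ratios were tested with exact two-sided permutation tests on log2 values. The script was tested on simulated data. Upstream windows were searched in Python 3.11.15, and figures were drawn with matplotlib 3.10.9. Alternatives were a pseudocount of 0.1, no filter or a mean TPM of at least 5, 3 scalings, weights per sample, no trend, fits of 2 groups alone, a replicate block and leaving out each mouse. The members, lists and alternatives were chosen with earlier results of these data known. All members are named, and of each pathway list the genes past the study's threshold, up to the 4 with the largest change per comparison. *Pcyt2*, *Gpd2* and the marker genes were named after their values were seen. Genes of the lists with a mean under 1 TPM are named where they were not tested.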

Additional observations from a re-analysis of the deposited data

Results flagged for a closer look

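*Dgat2* in control mice was the one value that stood apart among the 30 sets of 4 mice examined (10 genes in 3 groups). Control replicate 2 was at 488 TPM against 400 to 414 TPM in the other 3, a gap of 0.848 of the whole range, above Dixon's 95% critical value for 4 samples. Chance alone picks out about 1 in 20 such sets. The same mouse had the lowest *Gpam*, *Agpat2*, *Lpin1*, *Lpin2*, *Lpin3*, *Mogat1* and *Dgat1* of the control group. Without it, *Dgat2* differed between knockdown and control by 0.58 on the log2 scale (adjusted p = 0.0108).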

How the results depend on the processing

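Over the 10 alternatives with all mice, 274 of 297 member values kept their direction and their side of an adjusted p of 0.05. Of the others, 7 lost the call, 5 gained it and 11 changed sign. With 1 mouse left out 336 of 360 kept both, with 6 lost, 1 gained and 17 reversed. Most of these values had no call to lose, since only *Gpam*, *Agpat2* and *Dgat2* after knockdown had a call. Leaving out a mouse of the group not compared cannot move the log2 fold change. The 3 members with an adjusted p under 0.05 after knockdown became 1 with no filter, where more features are tested, and 0 with only the 2 groups compared, where fewer mice give the spread (adjusted p = 0.0780 for *Gpam*, 0.0790 for *Agpat2* and 0.0621 for *Dgat2*). They numbered between 1 and 3 with one mouse left out, 1 without control replicate 3 or without knockdown replicate 2. *Agpat2* also lost the call with array weights (0.0742). At the study's threshold, *Dgat2* in knockdown minus control fell under 0.5 after median-of-ratios scaling (0.40). It also did so without control replicate 1, 3 or 4 (0.494, 0.499 and 0.483) or knockdown replicate 2 or 4 (0.487 and 0.497). *Agpat2* did so without control replicate 2 (0.494). For rescue minus control, the 2 members past the study's threshold became 1 with a mean TPM of at least 5, which removes *Mogat1*, and 1 after median-of-ratios scaling, where *Gpam* was at 0.48. The 0 members with an adjusted p under 0.05 there became 1 with only the 2 groups compared and 4 with array weights, and 0 to 1 with one mouse left out (*Mogat1* without control replicate 1, 0.0397). For rescue minus knockdown, 0 to 1 members passed the threshold with one mouse left out (1 without knockdown replicate 4, *Gpam* at -0.55), and 1 to 5 genes of the other lists did in place of 4. Sign changes were limited to members without a call. In knockdown minus control, *Gpat4* went to -0.089 after median-of-ratios scaling, -0.038 after quantile normalization, -0.0059 without the 20 highest genes and -0.045 with array weights. In rescue minus knockdown, *Lpin1* went to -0.016 after median-of-ratios scaling. In rescue minus control, *Agpat3* went to -0.095 after median-of-ratios scaling and -0.056 after quantile normalization, and *Lpin1* to -0.14, -0.051, -0.026 and -0.014 under the 2 scalings, without the 20 highest genes and with array weights. With one mouse left out, *Gpat4* ranged from -0.060 to 0.088, from -0.15 to 0.0061 and from -0.13 to 0.013 in the 3 comparisons, *Lpin1* from -0.11 to 0.19, from -0.12 to 0.21 and from -0.045 to 0.20, *Lpin3* after knockdown from -0.14 to 0.019, and *Lpin2* in rescue minus control from -0.12 to 0.018. Where no cause is named, the cause was not tested. Over all genes tested, same-numbered mice did not deviate together (correlations from -0.24 to 0.15). This cannot show whether the numbers mark a pairing, such as a shared day. With a replicate block, 2 members had an adjusted p under 0.05 after knockdown (*Agpat2* at 0.0554), and 3, 0 and 2 passed the threshold in the 3 comparisons. All 108 values of the ratios, computed with a pseudocount or with a mouse left out as alternatives chosen after seeing the data, moved by less than the spread between mice. Leaving out 1 of 4 mice cannot move a group mean by as much as that spread. The values with a mouse left out had to stay within it, and they are no evidence of stability.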
